A study of Homo sapiens with 8 samples.

Results

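The TEAD transcription factors and their Vestigial-like (VGLL) cofactors were followed in the human colorectal cancer line HCT-116 after siRNA knockdown of *HHEX*, of *YAP1* with *WWTR1*, or of the TEAD genes. The 7 genes *TEAD1*, *TEAD2*, *TEAD3*, *TEAD4*, *VGLL1*, *VGLL3* and *VGLL4* were taken by symbol from the 20030 rows of each library. RNA was sequenced in 8 libraries of transiently transfected cells. The cells of 2 libraries had a control siRNA (siNC). Those of 3 had an siRNA against *HHEX*, a homeobox transcription factor that binds TEAD proteins (siHHEX), those of 2 had siRNAs against *YAP1* and *WWTR1*, the genes of YAP and TAZ (siYAP/TAZ), and those of 1 had siRNAs against the 4 TEAD genes (siTEAD1/2/3/4). All cells were of the same line and were transfected with siRNA, the controls included. The siHHEX and siYAP/TAZ libraries carry the numbers of the siRNAs listed in the methods, so each replicate of a knockdown may have had its own siRNAs. The labels do not name the siRNA of a library, and siNC 1 and siNC 2 are numbered too although 1 control siRNA is listed. The spread within a knockdown may thus include that between siRNAs. The labels do not say whether the siNC libraries came from separate cultures, so their spread may be technical, and p values measure the spread between these libraries. The sample record of siHHEX 3 is numbered apart from those of the other libraries. The labels do not say whether siHHEX 3 was prepared and sequenced with them. Levels are in FPKM, a fragment count divided by gene length and by the size of the library, so that genes can be compared on this scale. FPKM values of a library summed to between 331663 and 383423, and the spacing of the lowest values put the depths of the libraries at between 0.924 and 1.11 times that of siNC 1. Tests used limma on log2(FPKM + 1) over 10677 genes, those that reached 1 FPKM in 2 or more libraries, and a gene was called with a Benjamini-Hochberg adjusted p under 0.05. Of the 7 genes, 5 passed that filter, and *VGLL1* and *VGLL3* did not.

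TEAD proteins bind DNA through a conserved TEA domain and activate little transcription without a partner. YAP and TAZ, which the Hippo kinases hold in the cytoplasm, enter the nucleus when the pathway is off, bind a shared surface of the TEAD proteins and switch on genes of growth and matrix remodelling. VGLL proteins bind TEADs through short Tondu motifs. VGLL4, which has a pair of them, competes with YAP and acts as a corepressor in the colon and stomach, while VGLL1 and VGLL3 behave more like coactivators in other tissues.

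The cells had the epithelial markers of the line. *EPCAM*, an epithelial adhesion gene, was between 116 and 174 FPKM in the 8 libraries and *CDX2*, an intestinal transcription factor, between 3.86 and 6.24 FPKM. *VIL1*, the villin gene of the brush border, was at most 0.0335 FPKM. Leukocyte markers summed to at most 0.159 FPKM and endothelial markers to at most 0.0292 FPKM, and the fibroblast markers to at most 2.43 FPKM, most of it *COL1A1*. The epithelial list of 6 genes summed to 2678 and 2800 FPKM in siNC, to between 2457 and 2685 FPKM in siHHEX, to 1442 and 1471 FPKM in siYAP/TAZ, and to 2179 FPKM in the library labelled siTEAD1/2/3/4. Its most abundant gene, the keratin *KRT8*, was at 898 and 897 FPKM in siYAP/TAZ against 1591 and 1707 FPKM in siNC, and the part of this difference in the results below was not tested.

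The TEAD siRNAs are shown because their sites differ between the paralogs. The siRNA against *TEAD1*, *TEAD3* and *TEAD4* has a sense strand of 19 bases, and the siRNA against *TEAD2* has 19 bases and an overhang of tt. Each was matched to the GENCODE 44 transcripts of GRCh38. The target stretches are given on the transcript strand with 5 or 6 bases on either side, and capitals mark bases equal to the siRNA.
siTEAD1/3/4 sense strand: ugaucaacuucauccacaa
*TEAD1* site: atataTGATCAACTTCATCCACAAgctcaa
*TEAD3* site: gtacaTGATCAACTTCATCCACAAgctgaa
*TEAD4* site: gtacaTGATCAACTTCATCCACAAgctcaa
*TEAD2*, same stretch: gtaccTGgTgAAtTTCtTgCACAAgttgcg
siTEAD2 sense strand: gccagaugcaguugauucu
*TEAD2* site: gaaccGCCAGATGCAGTTGATTCTtaccag

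The siTEAD1/3/4 sequence matched the transcripts of 3 genes without a mismatch, and these were *TEAD1*, *TEAD3* and *TEAD4*. The sites lie in coding sequence of exon 12 of the 13 exons of each reference transcript, at chr11:12930244-12930262 on the plus strand for *TEAD1*, at chr6:35475400-35475418 on the minus strand for *TEAD3* and at chr12:3040177-3040195 on the plus strand for *TEAD4*. In *TEAD2* the same stretch, at chr19:49342502-49342520 on the minus strand, has 5 mismatches, which are A3G, C5G, C8T, A12T and C14G when positions are counted from 1 at the 5′ end of the sense strand and the base of the siRNA is written first. The siTEAD2 sequence matched 1 gene, *TEAD2*, at chr19:49348703-49348721 on the minus strand, in coding sequence of exon 9 of 13. Of the annotated protein-coding transcripts, 4 of 5 of *TEAD1*, 2 of 2 of *TEAD3* and 3 of 7 of *TEAD4* hold the siTEAD1/3/4 site, and 7 of 7 of *TEAD2* hold the siTEAD2 site.

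In the control cells *TEAD4* and *TEAD1* were the abundant paralogs. *TEAD4* was at 20.3 and 21.3 FPKM in siNC 1 and siNC 2 and *TEAD1* at 18.3 and 19.0 FPKM. *TEAD3* followed at 7.36 and 6.99 FPKM, then *VGLL4* at 5.35 and 4.96 FPKM and *TEAD2* at 4.10 and 3.47 FPKM. Neighbours in this order did not overlap between the siNC libraries, although 2 libraries per gene allow no exact permutation p under 0.333. Against the siNC means of all 10677 tested genes, *TEAD4* stood at percentile 75.7, *TEAD1* at 73.6, *TEAD3* at 49.4, *VGLL4* at 40.04 and *TEAD2* at 32.2. *VGLL3* was at 0.0372 and 0.0408 FPKM in siNC, and *VGLL1* was listed at 0 in all 8 libraries, as was the remaining family gene *VGLL2*. Thus *VGLL4* was the only VGLL gene measured above 1 FPKM.

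The order changed with the knockdown. In siHHEX *TEAD4* stayed first, and *TEAD1*, between 5.30 and 10.2 FPKM, overlapped with *TEAD2*, *TEAD3* and *VGLL4*. *TEAD2* and *VGLL4* overlapped with each other, and *TEAD3* lay above both. In siYAP/TAZ *TEAD1* was first at 16.4 and 16.1 FPKM, above *TEAD4* at 12.5 and 13.6 FPKM and *TEAD3* at 7.75 and 8.07 FPKM, and the values of *TEAD2* lay within those of *VGLL4*. In the library labelled siTEAD1/2/3/4, *TEAD3* and *TEAD1* were first at 9.08 and 9.02 FPKM, followed by *VGLL4*, *TEAD4* and *TEAD2*. The plot of levels by library shows these values.

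**Figure D1:**
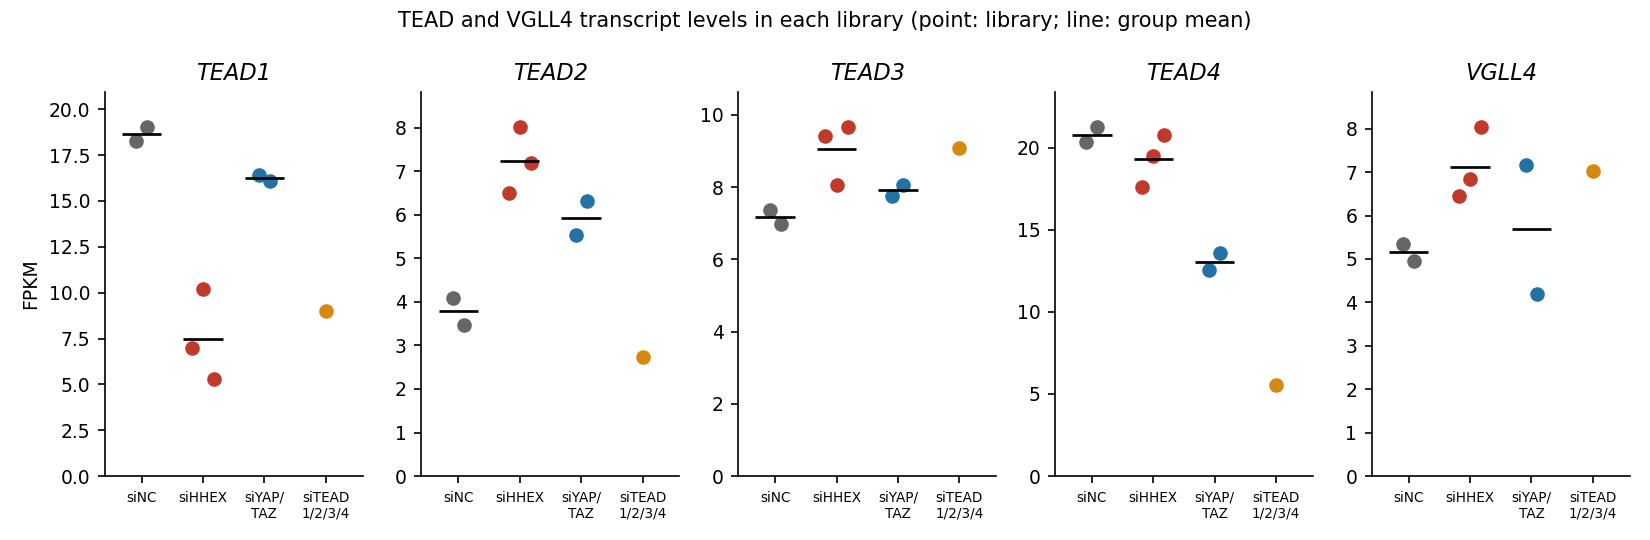
FPKM (y axis, from 0, a separate scale per gene) of *TEAD1*, *TEAD2*, *TEAD3*, *TEAD4* and *VGLL4* in each of the 8 libraries, grouped by siRNA (x axis). Points are libraries and lines are means of groups with more than 1 library; *TEAD1* was between 5.30 and 10.2 FPKM in siHHEX against 18.3 and 19.0 FPKM in siNC, and *TEAD4* was at 12.5 and 13.6 FPKM in siYAP/TAZ against 20.3 and 21.3 FPKM.

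The targeted genes were examined first. *HHEX* was at 8.60 and 9.06 FPKM in siNC and at 3.25, 3.54 and 1.85 FPKM in siHHEX 1, 2 and 3. *WWTR1* was at 6.80 and 6.72 FPKM in siNC and at 2.64 and 2.58 FPKM in siYAP/TAZ, and *YAP1* at 20.2 and 19.7 FPKM in siNC and at 6.90 and 8.39 FPKM in siYAP/TAZ. The ranges of these genes did not overlap with siNC, and *HHEX* and *WWTR1* passed the test in their own knockdowns (adjusted p = 0.0054 and 0.0156 by limma) while *YAP1* did not in siYAP/TAZ (adjusted p = 0.0681). *YAP1* was called there with only the groups compared, with the replicate number as a block, without siHHEX 2 and with the correction for GC content and length described below (adjusted p between 0.00796 and 0.0463). The call of *WWTR1* was lost with no filter and without siNC 1, siNC 2 or siYAP/TAZ 2 (adjusted p between 0.0611 and 0.133), and that of *HHEX* without siNC 1 or siNC 2 (adjusted p = 0.0746 or 0.0637).

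In the library labelled siTEAD1/2/3/4, *TEAD4* was at 5.56 FPKM, *TEAD1* at 9.02 FPKM and *TEAD2* at 2.73 FPKM, each below both siNC libraries. *TEAD3*, whose transcripts hold the siTEAD1/3/4 site without a mismatch, was at 9.08 FPKM, above both siNC libraries, and so went against the label. The log2 difference from the siNC mean was -1.73 for *TEAD4*, -0.97 for *TEAD1*, -0.36 for *TEAD2* and 0.30 for *TEAD3*. Past 1.5-fold on the scale of FPKM + 1, 2 of the 5 tested members were lower, *TEAD4* and *TEAD1*, and 0 were higher, where 2.18% of all tested genes were lower and 4.15% higher. Past 2-fold on that scale 1 was lower, *TEAD4*, and 0 were higher, where 0.478% and 0.412% of all tested genes were. *TEAD1* was past 2-fold lower too with a pseudocount of 0.1 (-1.04) and with equal medians (-1.03). Of the 10677 tested genes, 3 had a more negative difference than *TEAD4*, and 52 had a more negative difference than *TEAD1*. *VGLL4*, whose closest stretch has 7 mismatches with either siRNA, was at 7.02 FPKM and had a difference of 0.38. With a single library there is no replicate check of these differences and no p value is given.

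Knockdown of *HHEX* went with less *TEAD1* RNA and more *TEAD2* RNA, and *TEAD3*, *TEAD4* and *VGLL4* were not called. The call of *TEAD2* was lost, and *TEAD4* was called lower, when a trend on base composition and transcript length was taken off, as given below. *TEAD1* was at 6.99, 10.2 and 5.30 FPKM in siHHEX 1, 2 and 3, all below the siNC libraries. Its log2 fold change was -1.25 (standard error 0.208, 95% confidence interval -1.72 to -0.78, adjusted p = 0.00641 by limma), and 26 of the 10677 tested genes had a lower one. In bulk RNA, fewer cells that express a gene and less RNA per cell cannot be told apart. *TEAD2* was at 6.495, 8.02 and 7.18 FPKM, all above siNC, and its log2 fold change was 0.78 (standard error 0.137, 95% confidence interval 0.47 to 1.09, adjusted p = 0.00709 by limma). *TEAD3* was at 9.42, 8.06 and 9.67 FPKM, also above siNC in every library. Its log2 fold change of 0.29 did not pass the test (95% confidence interval 0.013 to 0.58, adjusted p = 0.094 by limma). *TEAD4* was at 17.6, 19.5 and 20.8 FPKM, within or below the siNC values, with a log2 fold change of -0.11 (95% confidence interval -0.38 to 0.17, adjusted p = 0.503 by limma). Of the 5 tested members, 1 was called lower and 1 higher, where 32.9% of all tested genes were called, 16.9% lower and 16% higher. When siNC 1 or siNC 2 was left out, the adjusted p was 0.0747 or 0.0697 for *TEAD1* and 0.0803 or 0.0877 for *TEAD2*, and the calls over all genes fell from 3518 to 19 or 27.

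Within siHHEX, *TEAD1* was highest in the library labelled siHHEX 2. *YAP1* was highest there too, at 17.4 FPKM, against 5.77 and 6.93 FPKM in siHHEX 1 and 3, although *HHEX* was at similar levels in siHHEX 1 and 2. Each siHHEX library may have had its own siRNA, and siRNA and library cannot be told apart here. Without siHHEX 2, the log2 fold change of *TEAD1* was -1.47, and that of *TEAD3* was 0.37 and passed the test (adjusted p = 0.0277 by limma). Without siHHEX 3, which had the lowest *TEAD1* and a sample record numbered apart, that of *TEAD1* was -1.05 (adjusted p = 0.0103 by limma).

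Knockdown of *YAP1* and *WWTR1* gave another pattern among the paralogs. *TEAD4* was at 12.5 and 13.6 FPKM in siYAP/TAZ, below both siNC libraries, a log2 fold change of -0.63 (standard error 0.133, 95% confidence interval -0.93 to -0.34, adjusted p = 0.025 by limma). *TEAD2* was at 5.54 and 6.32 FPKM, above both siNC libraries. Its log2 fold change of 0.54 did not pass the test (95% confidence interval 0.20 to 0.87, adjusted p = 0.0586 by limma). *TEAD2* was called there with only the groups compared, without siHHEX 2 and with equal sums (adjusted p between 0.0397 and 0.0425 by limma). *TEAD1* had a log2 fold change of -0.19 (95% confidence interval -0.70 to 0.32, adjusted p = 0.633 by limma) and *TEAD3* of 0.12 (95% confidence interval -0.18 to 0.43, adjusted p = 0.599 by limma). Of the 5 tested members 1 was called, *TEAD4*, where 8.28% of all tested genes were called, 2.13% lower and 6.15% higher. The adjusted p of *TEAD4* was 0.198 without siNC 1, 0.229 without siNC 2, 0.0684 without siYAP/TAZ 1 and 0.106 without siYAP/TAZ 2, with log2 fold changes between -0.69 and -0.58.

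These comparisons share the siNC libraries, so the knockdowns were also compared with each other. *TEAD1* was lower in siHHEX than in siYAP/TAZ by a log2 fold change of -1.06 (standard error 0.208, 95% confidence interval -1.53 to -0.59, adjusted p = 0.00711 by limma), and *TEAD4* was higher by 0.53 (standard error 0.121, 95% confidence interval 0.26 to 0.80, adjusted p = 0.0113 by limma). The values of the 3 siHHEX libraries did not overlap with those of the 2 siYAP/TAZ libraries for either gene. *TEAD2* and *TEAD3* were not called, with differences of 0.25 (95% confidence interval -0.06 to 0.55, adjusted p = 0.172 by limma) and 0.17 (95% confidence interval -0.11 to 0.45, adjusted p = 0.291 by limma). Over all tested genes 39.3% were called, 25.9% lower and 13.5% higher in siHHEX, so that 2 called of 5 was close to the background. The adjusted p of *TEAD4* was 0.0537 without siYAP/TAZ 1 and 0.0526 without siYAP/TAZ 2, and that of *TEAD1* was 0.052 without siYAP/TAZ 2. The difference of *TEAD4* fell to 0.10 and its call was lost (adjusted p = 0.581) when the trend on base composition and length was taken off, as given below.

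**Figure D2:**
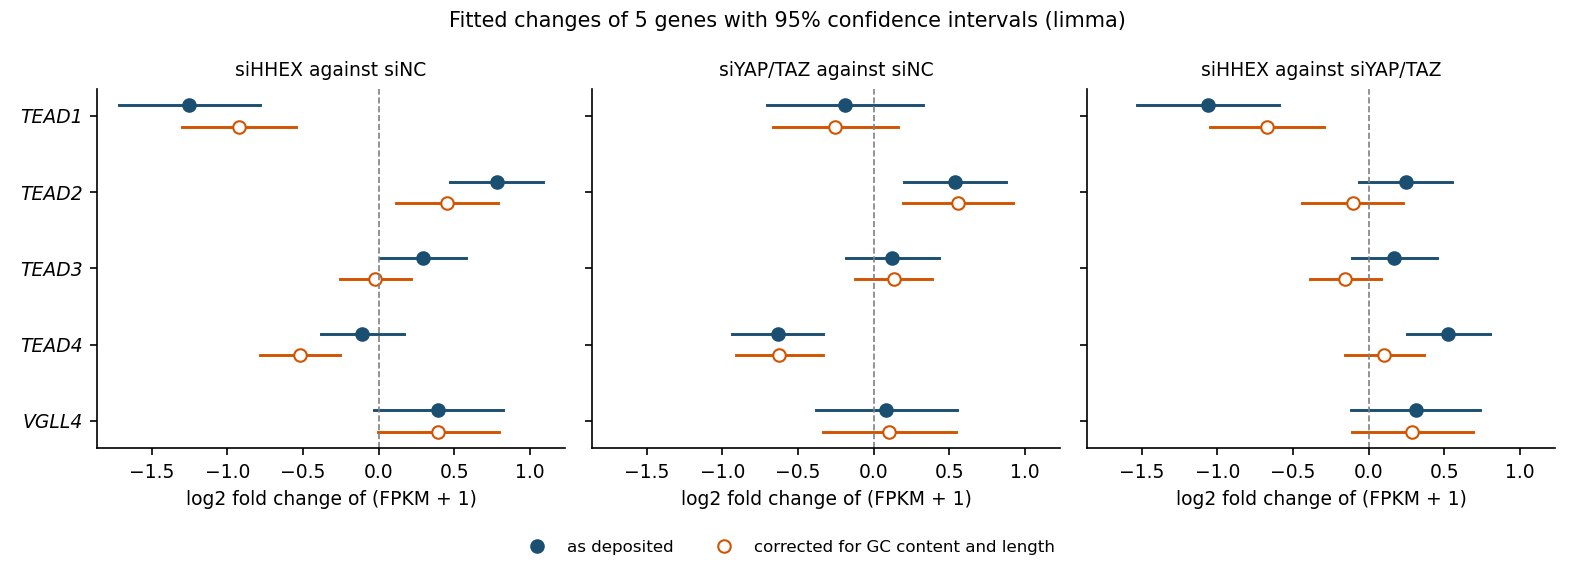
Log2 fold changes of (FPKM + 1) from limma (x axis) with 95% confidence intervals (lines) for 5 genes (y axis) in 3 comparisons, from the deposited values (filled) and with the trend on GC content and transcript length taken off (open). The interval of *TEAD1* lay below 0 in siHHEX with and without the correction, while *TEAD4* moved from -0.11 to -0.52 in siHHEX and stayed near -0.62 in siYAP/TAZ.

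The paralogs differ in base composition, and the siHHEX libraries had a trend with it. The reference transcript of *TEAD1* is 9417 bases long with 43.0% GC, and those of *TEAD2*, *TEAD3* and *TEAD4* are 2175, 2986 and 1710 bases long with 58.1%, 59.8% and 60.4% GC. Across 10617 tested genes, which are not independent, the change from the siNC mean had a Spearman coefficient with GC content of 0.679, 0.599 and 0.755 in siHHEX 1, 2 and 3. It was 0.060 and -0.052 in the siYAP/TAZ libraries and 0.298 in the library labelled siTEAD1/2/3/4. In siNC 1 and siNC 2 it was -0.211 and 0.211, which mirror each other because their mean is the reference, so the controls also differed along GC content. The coefficient with transcript length was -0.377, -0.295 and -0.385 in siHHEX, and the correction below took off both trends together. After a spline on GC content and length was taken off each library, *TEAD1* remained lower in siHHEX, by a log2 fold change of -0.92 (adjusted p = 0.0205 by limma). *TEAD2* was at 0.45 and no longer called (adjusted p = 0.099), *TEAD3* was at -0.02, and *TEAD4* was at -0.52 and called (adjusted p = 0.0381). In siYAP/TAZ *TEAD4* kept its call with a log2 fold change of -0.62 (adjusted p = 0.0194 by limma), and *TEAD2* was at 0.56 (adjusted p = 0.0541). Between the knockdowns, *TEAD1* stayed lower in siHHEX by a log2 fold change of -0.67 (adjusted p = 0.0418 by limma), and the difference of *TEAD4* was 0.10 (adjusted p = 0.581). Thus the falls of *TEAD1* in siHHEX and of *TEAD4* in siYAP/TAZ were called with and without the correction, and whether *TEAD4* fell in siHHEX depended on it. With the replicate number as a block and the correction together, *TEAD1* lost its call in siHHEX (-0.78, adjusted p = 0.0502 by limma). It lost that between the knockdowns too (-0.53, adjusted p = 0.0791 by limma). The library siHHEX 3, the only one with its number, added nothing to the fitted changes when the replicate number was a block.

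**Figure D3:**
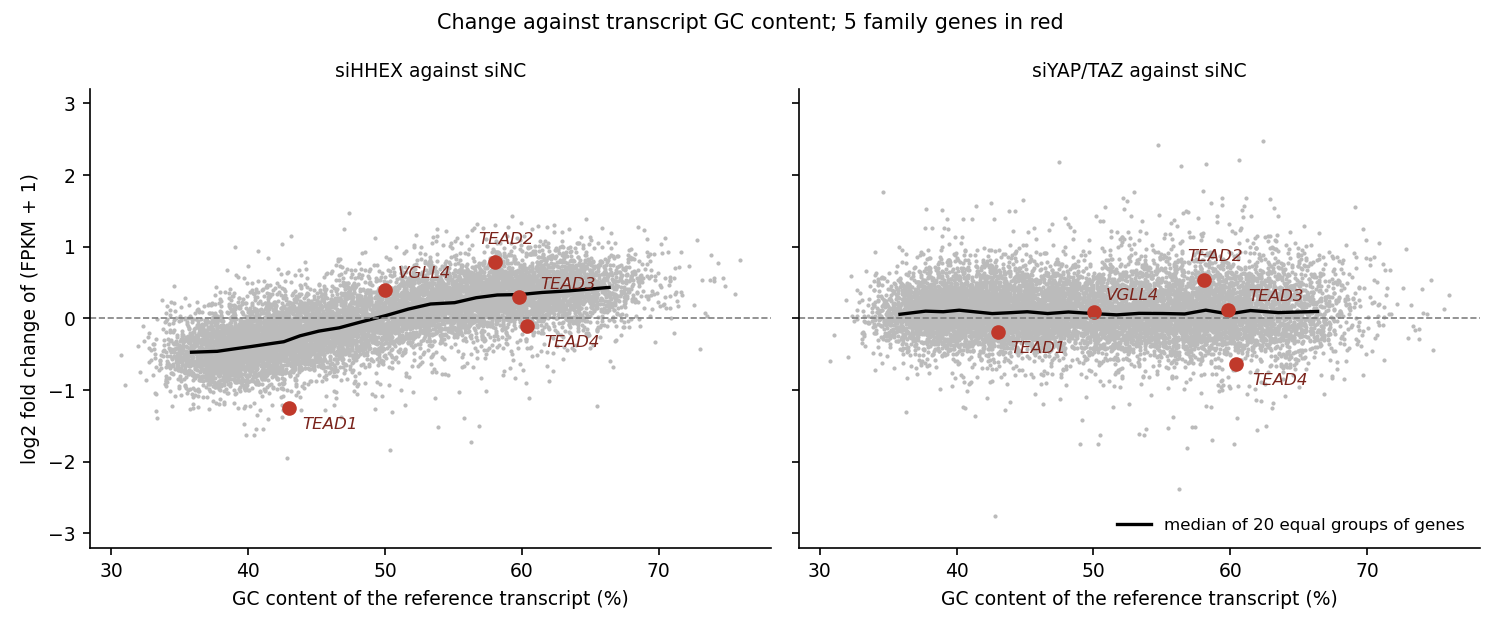
Log2 fold change of (FPKM + 1) (y axis) against GC content of the reference transcript in % (x axis) for 10617 tested genes (grey), in siHHEX (left) and siYAP/TAZ (right), with the median of 20 equal groups of genes by GC content (black) and 5 family genes (red). In siHHEX the medians rise with GC content, *TEAD1* at -1.25 and *TEAD4* at -0.11 lie below the line, and in siYAP/TAZ the line is flat and *TEAD4* at -0.63 lies below it.

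The paralogs were also expressed as shares of their summed FPKM. The sum was 50.05 and 50.8 FPKM in siNC, 40.5, 45.8 and 42.9 FPKM in siHHEX, 42.2 and 44.04 FPKM in siYAP/TAZ, and 26.4 FPKM in the library labelled siTEAD1/2/3/4. All knockdown libraries were below the siNC libraries. The difference from siNC was -7.34 FPKM in siHHEX (two-sided exact permutation p = 0.2, the smallest that 3 against 2 libraries allow) and -7.28 FPKM in siYAP/TAZ (two-sided exact permutation p = 0.333, the smallest that 2 against 2 allow), so neither could pass 0.05. With the trend on GC content and length taken off, these differences were -14.0 FPKM in siHHEX and -8.15 FPKM in siYAP/TAZ, an alternative chosen after seeing the data. The paralog with the greatest fall in mean FPKM was *TEAD1* in siHHEX and *TEAD4* in siYAP/TAZ.

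In siNC *TEAD1* made up 37.0% ± 0.722 (SD, n = 2) of the sum, *TEAD2* 7.51% ± 0.961, *TEAD3* 14.2% ± 0.662 and *TEAD4* 41.3% ± 0.902. In siHHEX the share of *TEAD1* was 17.3% ± 4.98 (SD, n = 3), with 17.2%, 22.3% and 12.3% in siHHEX 1, 2 and 3, all below siNC. The other shares in siHHEX were 16.8% ± 0.745 for *TEAD2*, 21.1% ± 3.07 for *TEAD3* and 44.8% ± 3.13 for *TEAD4*, and the libraries were above siNC for each of these paralogs. Shares of a sum are tied, so a fall of 1 share raises the others. The mean level of *TEAD4* itself was 19.3 FPKM in siHHEX against 20.8 FPKM in siNC. In siYAP/TAZ *TEAD4* made up 30.2% ± 0.802 (SD, n = 2), below siNC, *TEAD1* 37.7% ± 1.64, *TEAD2* 13.7% ± 0.869 and *TEAD3* 18.3% ± 0.0344. In the library labelled siTEAD1/2/3/4 the shares were 34.2% for *TEAD1*, 10.3% for *TEAD2*, 34.4% for *TEAD3* and 21.1% for *TEAD4*. The share of *TEAD1* thus differed from siNC by -19.7 percentage points in siHHEX (two-sided exact permutation p = 0.2, the smallest possible) and by 0.685 in siYAP/TAZ, where the libraries overlapped with siNC. With the trend on GC content and length taken off, the difference in siHHEX was -10.3 percentage points for *TEAD1*, and that of *TEAD4* turned from 3.55 to -2.86.

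**Figure D4:**
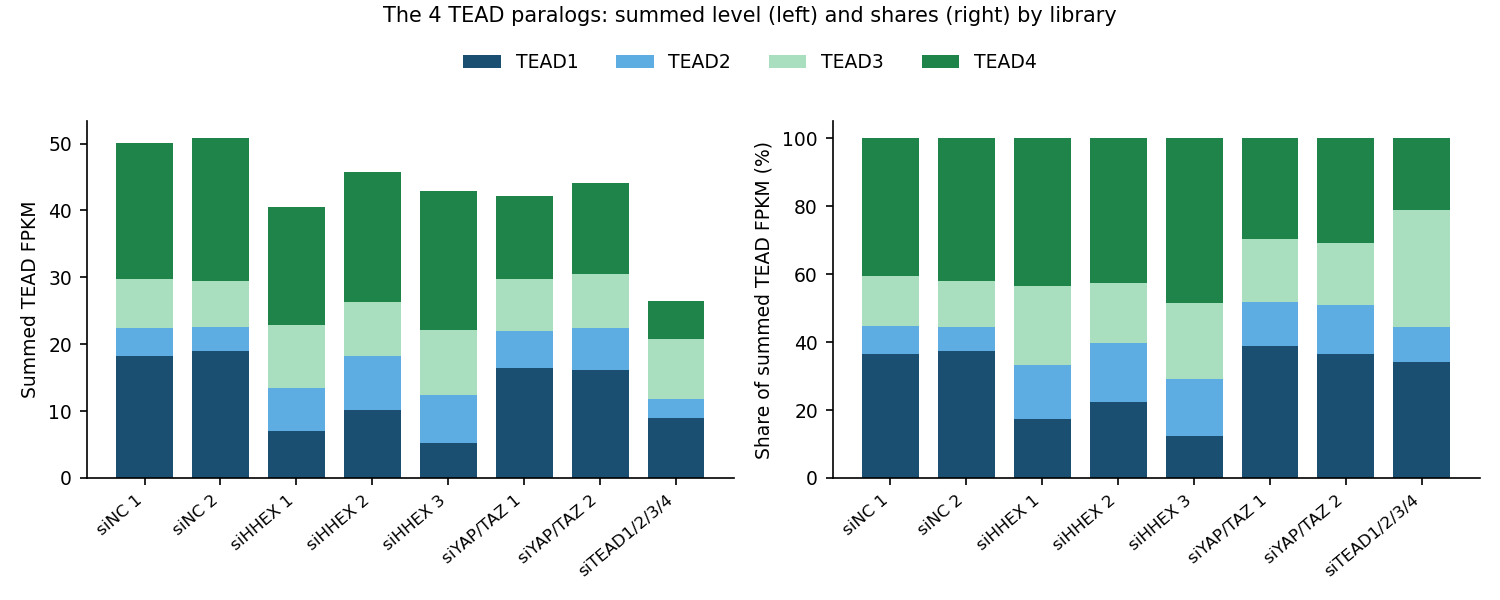
Summed FPKM of *TEAD1*, *TEAD2*, *TEAD3* and *TEAD4* (left, y axis from 0) and the share of each in that sum in % (right) for each of the 8 libraries (x axis), stacked by paralog. The *TEAD1* part is between 12.3% and 22.3% in the siHHEX libraries against 36.5% and 37.5% in siNC, and the *TEAD4* part is 29.7% and 30.8% in siYAP/TAZ against 40.6% and 41.9%.

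Of the VGLL cofactors, *VGLL4*, the corepressor gene, was at 6.46, 6.85 and 8.04 FPKM in siHHEX, above both siNC libraries. Its log2 fold change of 0.40 did not pass the test (95% confidence interval -0.03 to 0.82, adjusted p = 0.128 by limma). In siYAP/TAZ it was at 7.18 and 4.19 FPKM, on either side of the siNC values, with a log2 fold change of 0.08 (95% confidence interval -0.38 to 0.55, adjusted p = 0.832 by limma). The siYAP/TAZ libraries differed so much that the difference between siHHEX and siYAP/TAZ, 0.31 with all libraries (95% confidence interval -0.11 to 0.74, adjusted p = 0.207 by limma), was 0.64 without siYAP/TAZ 1 (adjusted p = 0.0311) and -0.02 without siYAP/TAZ 2 (adjusted p = 0.954). *VGLL3* was listed at 0 in siHHEX 1 and 3, was at 0.00884 FPKM in siHHEX 2, and was at 0.0382 and 0.0684 FPKM in siYAP/TAZ and 0.0434 FPKM in the library labelled siTEAD1/2/3/4. *VGLL3* did not pass the filter on low values. With no filter it was lower in siHHEX than in siYAP/TAZ (log2 fold change -0.07, adjusted p = 0.0331 by limma) and was not called in siHHEX or siYAP/TAZ against siNC (-0.05 and 0.02, adjusted p = 0.0854 and 0.54).

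The level of *VGLL4* per summed level of *YAP1* and *WWTR1* sets the corepressor gene against the coactivator genes. This ratio was 0.198 and 0.187 in siNC, and 0.593, 0.291 and 0.519 in siHHEX 1, 2 and 3, all above siNC. The mean difference of the log2 ratio was 1.22 (two-sided exact permutation p = 0.2, the smallest possible), and siHHEX 2, with the highest *YAP1*, had the smallest ratio of the 3. It was 0.752 and 0.382 in siYAP/TAZ, where *YAP1* and *WWTR1* were targeted and the rise is a description, and 0.239 in the library labelled siTEAD1/2/3/4. In siHHEX the log2 fold changes of *YAP1* and *WWTR1* were -1.07 and -0.06 (adjusted p = 0.0429 and 0.82 by limma). The call of *YAP1* was lost with no filter, with only the groups compared, with the replicate number as a block and without siHHEX 1, siHHEX 3, either siYAP/TAZ library or either siNC library, with adjusted p between 0.0606 and 0.177. With the trend on GC content and length taken off, *YAP1* was at -0.77 and not called in siHHEX (adjusted p = 0.172 by limma).

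A list of 15 other partners and modifiers of TEAD proteins was read beside the family, and 11 of them passed the filter. In siHHEX 2 were called lower, *YAP1* and the targeted *HHEX*, and 0 higher by limma (1 higher at an unadjusted p under 0.05, *LYPLA2*), where 32.9% of all tested genes were called, with a median log2 fold change of -0.19 against -0.0055 over all tested genes. In the settings in which *YAP1* lost its call *HHEX* was the lower gene, except without siNC 1 or siNC 2, where it was not called either. In siYAP/TAZ 1 was called lower, the targeted *WWTR1*, and 1 higher, *NCOA2*, a p160 coactivator, which was at 2.71 and 3.69 FPKM against 1.37 and 1.56 FPKM in siNC (log2 fold change 0.76, adjusted p = 0.0331 by limma), where 8.28% of all tested genes were called, 2.13% lower and 6.15% higher. The call of *NCOA2* was lost with no filter and without siNC 1, siNC 2, siHHEX 1 or siYAP/TAZ 2 (adjusted p between 0.0535 and 0.243), and with only the groups compared 2 were lower and 3 higher, where 1759 of the 10677 tested genes were called. The median over the list was 0.16 against 0.082 over all tested genes. Between siHHEX and siYAP/TAZ, 6 were lower and 2 higher in siHHEX, where 39.3% of all tested genes were called, 25.9% lower and 13.5% higher. Without siYAP/TAZ 2 fewer of them were called, and the median log2 fold change over the list was -0.43 against -0.11 over all tested genes. The lower genes included the 3 p160 coactivators, *NCOA1*, *NCOA2* and *NCOA3*, with log2 fold changes of -0.52, -0.96 and -0.85, and *RNF146*, a ubiquitin ligase gene, at -0.57. The other 2 lower genes were *HHEX* and *TCF7L2*, a Wnt pathway transcription factor that binds TEAD4, at -0.49. The higher genes were the targeted *WWTR1* and *LYPLA2*, a depalmitoylase gene, at 0.53. With the trend on GC content and length taken off, *HHEX* and *NCOA2* were lower and *WWTR1* higher, and the others were not called. Of the 10617 genes in that fit, 693 were called lower and 240 higher. In the library labelled siTEAD1/2/3/4, 0 of the 11 were past 1.5-fold on the scale of FPKM + 1, where 2.18% of all tested genes were lower and 4.15% higher, so that a count of 0 was close to the background. With a pseudocount of 0.1, *NCOA2* and *NCOA3* were past it, at 0.71 and 0.59 on the log2 scale, and were at 2.46 and 7.14 FPKM. The differences of *YAP1* and *WWTR1* from siNC were 0.17 and 0.01 on the log2(FPKM + 1) scale.

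A list of 22 genes that respond to YAP and TAZ was read as the output of the TEAD complex, and 16 of them passed the filter. *ANKRD1* and *FOXF2* were listed at 0 in all 8 libraries. In siHHEX 13 of the 16 were called lower and 0 higher, where 16.9% of all tested genes were called lower, with a median log2 fold change of -0.88. Among the 13, *CTGF* and *NUAK2* reached 1 FPKM in siNC alone, and so passed the filter only through the group where they were high. With the filter on the mean, which kept 14 targets, 11 were called lower, where 1819 of 10309 tested genes were. In siYAP/TAZ 9 were called lower and 0 higher, where 2.13% of all tested genes were called lower, with a median of -0.72. *CTGF* and *NUAK2* were among these 9 as well. With the filter on the mean 7 of 14 were called lower, where 225 of 10309 tested genes were. At an unadjusted p under 0.05 from limma, 0 were higher in either knockdown. In the library labelled siTEAD1/2/3/4, 9 were past 1.5-fold lower and 0 higher, where 2.18% of all tested genes were past 1.5-fold lower, with a median difference of -0.64. *CTGF* was among these 9, and with the filter on the mean 8 of 14 were past 1.5-fold lower. The medians over all tested genes were -0.0055, 0.082 and 0.060. With the trend on GC content and length taken off, 11 were called lower in siHHEX and 11 in siYAP/TAZ. Of the 10617 genes in that fit, 317 and 349 were called lower. Fewer targets were called in both knockdowns without siNC 1 or siNC 2, and in siYAP/TAZ without siYAP/TAZ 2. Without siNC 1 or siNC 2 their median log2 fold change was -0.87 or -0.88 in siHHEX and -0.76 or -0.68 in siYAP/TAZ. It was -0.81 in siYAP/TAZ without siYAP/TAZ 2.

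Some target genes were called between the knockdowns, in a share no larger than that of all tested genes. *F3*, the tissue factor gene, was at 20.3, 17.9 and 20.6 FPKM in siHHEX, 11.3 and 10.4 FPKM in siYAP/TAZ and 9.93 FPKM in the library labelled siTEAD1/2/3/4, against 79.6 and 77.7 FPKM in siNC. It was higher in siHHEX than in siYAP/TAZ by a log2 fold change of 0.80 (adjusted p = 0.0041 by limma), as were *AMOTL2*, an angiomotin family gene, by 0.65 and *FJX1* by 0.72. *MYOF* and *ASAP1* were lower in siHHEX, with log2 fold changes of -0.35 and -0.47. These 5 of 16 stood beside 39.3% of all tested genes, so the count did not exceed the background. With no filter, with only the groups compared and with equal medians, 0 were called lower, where 2233, 1985 and 1514 of all genes were. Leaving out siNC 1, siNC 2 or siYAP/TAZ 2 ended the lower calls too. With equal sums 4 were lower and 2 higher, where 3954 and 857 of the 10677 tested genes were. Without siHHEX 2 the counts were also 4 and 2, where 3407 and 1754 of all tested genes were lower and higher. With the trend on GC content and length taken off, *F3* was called higher and *GADD45A* lower, and none of the other 4 kept its call. Of the 10617 genes in that fit, 240 were called higher and 693 lower. *LATS2*, the Hippo kinase gene, and *PTPN14*, a phosphatase gene that restrains YAP, were called lower in siHHEX, at -0.82 and -1.11. In siYAP/TAZ *LATS2* was called lower at -0.72 (adjusted p = 0.0298 by limma) and *PTPN14* was at -0.73 (adjusted p = 0.0558), and neither was called between the knockdowns (adjusted p = 0.581 and 0.125). Their differences in the library labelled siTEAD1/2/3/4, 0.02 and -0.08, rest on 1 library and were not tested. The map of the 16 genes shows the difference of each library from the siNC mean.

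**Figure D5:**
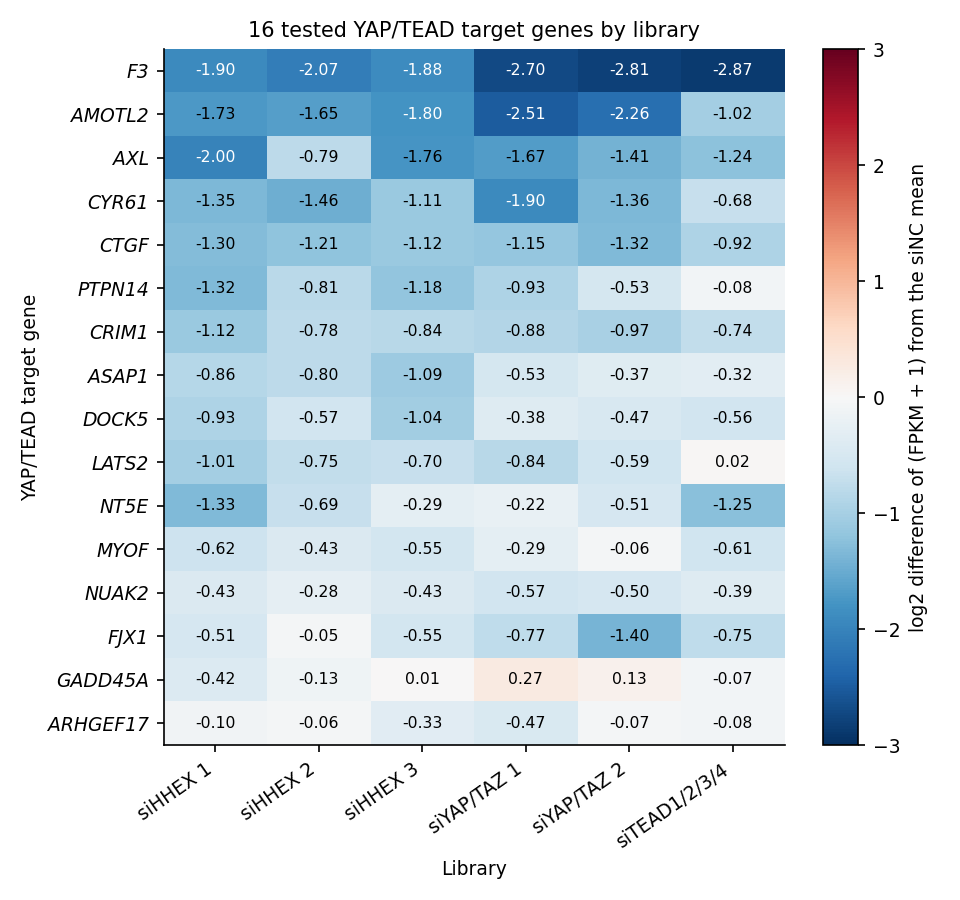
Log2 difference of (FPKM + 1) from the siNC mean (colour, value in each cell) for the 16 tested YAP/TEAD target genes (y axis, ordered by their mean in siHHEX) in the 6 knockdown libraries (x axis). At least 15 of the 16 genes are below the siNC mean in each library, and *F3* is the lowest gene in 5 of the 6. *CTGF* and *NUAK2* passed the filter only through siNC, where they were high.

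The genes whose levels followed each family gene most closely over the 8 libraries were listed as a description, with Pearson's r of log2(FPKM + 1). The libraries share their groups and the GC trend, and no p is given. For *TEAD1* they were *PRELID3B*, *BRMS1L* and *RIOX2* (r = 0.993, 0.989 and 0.989). For *TEAD2* they were *TMEM214*, *TRUB2* and *TPCN1* (r = 0.968, 0.966 and 0.955), and for *TEAD3* they were *TRAPPC12*, *FAM102A* and *TNNI3* (r = 0.980, 0.972 and 0.971). For *TEAD4* they included *ZBTB9* and *DYNLT1* (r = 0.962 and 0.930). For *VGLL4* they were *POMT2*, *SYVN1* and *TXLNA* (r = 0.972, 0.953 and 0.946). No other member of the family was among the genes listed.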

How the data were processed

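Per the labels and methods, RNA was extracted with Trizol from HCT-116 cells and sequenced on an Illumina HiSeq instrument. The submitters' processing notes name Trimmomatic 0.36, HISAT2 2.0.5, Cufflinks 2.2.1 and HTSeq 0.9.1, and the genome build and annotation are not given in the sources used here. The authors deposited 1 FPKM value per gene and library. Read counts were not analysed here, so counting intervals cannot be given.

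Of 20030 rows per library, 10677 reached 1 FPKM in 2 or more libraries and were fitted with limma 3.58.1 (R 4.3.3, variance trend) on log2(FPKM + 1), a scale that understates changes of low genes, in 1 fit of 8 libraries and 4 groups, with Benjamini-Hochberg adjustment over all of them. The lone siTEAD1/2/3/4 library was described by differences only. Sums, shares and ratios were compared with two-sided exact permutation tests in Python 3.11.15. The correction took a spline trend (4 degrees of freedom each for GC content and for log length, from GENCODE 44 on GRCh38) off each library for the 10617 genes (99.4% of those tested) with both. The limma fit was tried on simulated data with 200 of 10677 genes changed, fewer than were called in these data. At a simulated log2 change of 0.5, 0% of the changed genes were called in each of the 3 comparisons. At a change of 1, 75.5% were called in siHHEX, 62% in siYAP/TAZ and 77% between the knockdowns. A gene not called is thus not shown to be unchanged. Genes were named by family, by 2 lists (partners and targets) and, per family gene, as the 3 most correlated genes, 1 of which is not reported here; *EPCAM*, *CDX2*, *VIL1*, *COL1A1* and *KRT8* come from the marker lists. The members and lists were chosen with earlier results of these data known. Alternatives tried were a pseudocount of 0.1, no filter or a filter on the mean, fits of the groups compared, a replicate block, leaving out each library, equal sums or medians, the correction, and a fold over 2 with an unadjusted p under 0.05. ChIP-seq data were not analysed here.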

Additional observations from a re-analysis of the deposited data

How the results depend on the processing

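Every alternative rests on FPKM from 8 libraries, and read depth behind each value is unknown. Of the results, the direction and call of *TEAD1* in siHHEX held in 14 of 17 alternatives. Those of *TEAD4* in siYAP/TAZ held in 12 of 17. These alternatives are not independent checks. Several left the values of both compared groups as they were. There the estimates stayed at -1.25 and -0.63, and only the calls could change. The replicate block gave *TEAD1* the same estimate as leaving a siHHEX library out (-1.05). Neither call held when either siNC library was left out, which leaves a lone control. Except where a smaller set of libraries or genes is named, the cause of a change was not tested.

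When 1 library was left out, a lone library was assumed to vary like the other groups. Genes called ranged from 19 to 4839 in siHHEX, from 15 to 1317 in siYAP/TAZ and from 1026 to 5161 between the knockdowns. Log2 fold changes ranged, in siHHEX, from -1.47 to -1.05 for *TEAD1*, from 0.69 to 0.88 for *TEAD2* and from 0.25 to 0.37 for *TEAD3*. In siYAP/TAZ they ranged from 0.44 to 0.63 for *TEAD2*, from -0.69 to -0.58 for *TEAD4* and from -0.24 to 0.41 for *VGLL4*. Between the knockdowns they ranged from -1.28 to -0.87 for *TEAD1*, from 0.47 to 0.59 for *TEAD4* and from -0.015 to 0.64 for *VGLL4*. Target genes called lower ranged from 3 to 12 in siHHEX and from 2 to 10 in siYAP/TAZ, and the *TEAD1* share difference in siYAP/TAZ from -0.473 to 1.84 percentage points.

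Without the filter, 1907 genes were called in siHHEX and 320 in siYAP/TAZ, against 3518 and 884, and 1759 were called in siYAP/TAZ with only the groups compared, where *TEAD2* was called at 0.54. By fold over 2 and unadjusted p under 0.05, 174, 168 and 162 genes passed in siHHEX, in siYAP/TAZ and between the knockdowns, and 466, 500 and 613 with a pseudocount of 0.1, a combination chosen after seeing the data. By this rule on FPKM + 1, *TEAD2* in siHHEX (0.78), *TEAD4* in siYAP/TAZ (-0.63) and *TEAD4* between the knockdowns (0.53) did not pass. With equal sums, *TEAD2* was called in siYAP/TAZ (0.58), and the summed TEAD differences were -10.6 FPKM in siHHEX and -5.73 FPKM in siYAP/TAZ. With equal medians, *TEAD2* was called between the knockdowns (0.42), *VGLL4* in siYAP/TAZ was -0.015, and the summed TEAD difference in siYAP/TAZ was -10.8 FPKM. Genes called lower and higher in siHHEX were 1806 and 1712, 2393 and 1196 with equal sums, and 1460 and 2197 with equal medians. In siYAP/TAZ they were 227 and 657, 192 and 970, and 357 and 356, and between the knockdowns 2763 and 1437, 3954 and 857, and 1514 and 2504. The median of all genes between the knockdowns was -0.13, -0.26 with equal sums and 0.034 with equal medians.

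With the correction for GC content and length, 651 genes were called in siHHEX, 1329 in siYAP/TAZ and 933 between the knockdowns. In siHHEX *TEAD2* was at 0.45 and not called, *TEAD3* at -0.021 and *TEAD4* at -0.52 and called. Between the knockdowns *TEAD2* was at -0.11, *TEAD3* at -0.15 and *TEAD4* at 0.10, none of them called. Share differences from siNC were -10.3 for *TEAD1*, 7.86 for *TEAD2* and -2.86 percentage points for *TEAD4* in siHHEX, and -0.579 for *TEAD1* in siYAP/TAZ. The corrected summed TEAD differences, an alternative chosen after seeing the data, were -14.0 FPKM in siHHEX and -8.15 FPKM in siYAP/TAZ. In the library labelled siTEAD1/2/3/4, *TEAD1* was at -1.04 with a pseudocount of 0.1 and -1.03 with equal medians, *TEAD3* at 0.24 with equal medians and 0.20 corrected, and *TEAD4* at -1.88 with the pseudocount, -1.79 with equal medians and -1.83 corrected.

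After the group means were taken off, the correlation between same-numbered libraries lay between -0.0704 and 0.0215 across genes, so the numbers were not taken to pair them. With the replicate block, 2062 genes were called in siHHEX, 1031 in siYAP/TAZ and 2937 between the knockdowns, and no call of the 5 family genes changed. The library siHHEX 3 was the only one numbered 3, so with the block it added nothing to the fitted changes. The log2 fold change of *TEAD1* in siHHEX was -1.05 both with the block and without siHHEX 3. With the replicate block and the correction together, 155 genes were called in siHHEX and 273 between the knockdowns, and 7 target genes were called lower in siHHEX. In siHHEX *TEAD1* was then at -0.78 (adjusted p = 0.0502 by limma), *TEAD2* at 0.50, *TEAD3* at -0.015 and *TEAD4* at -0.51 (adjusted p = 0.0856), none called. Between the knockdowns *TEAD1* was at -0.53, *TEAD2* at -0.054, *TEAD3* at -0.15 and *TEAD4* at 0.11, none called.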
